A study of Rattus norvegicus with 8 samples.

Results

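The genes of the AMPA and NMDA receptor subunits were examined in rat dorsal spinal cord, with the question of whether an inhibitor of histone deacetylases (HDACs) given to the cord altered their transcripts during neuropathic pain. The members were chosen by gene symbol, not by their values, and comprised Gria1, Gria2, Gria3 and Gria4 of the AMPA receptor and Grin1, Grin2a, Grin2b, Grin2c, Grin2d and Grin3a of the NMDA receptor. All 10 were measured, each by 1 probe set, among 14506 genes with a value of their own. Affymetrix Rat Gene 1.0 ST arrays were hybridised with RNA of the dorsal cord on the injured side, 4 arrays per group with 1 animal sample each. All rats were adult male Wistar animals with a transected spinal nerve and an intrathecal catheter fed by an osmotic pump, and tissue was taken 14 days after the injury. The HDACI group received MS-275, which inhibits class I HDACs, at 30 nmol/d from before the injury onwards. The vehicle group received the solvent, dimethyl sulfoxide in saline. Both groups therefore carried the injury, the catheter and the solvent, no uninjured cord was among the arrays, and an effect of the injury on these genes could not be read.

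Glutamate is the main excitatory transmitter between primary afferents and dorsal horn neurons, and fast transmission there runs through AMPA receptors, tetramers of the subunits GluA1 to GluA4. GluA2 makes the channel nearly impermeable to calcium once its transcript is edited, so the balance of GluA1 and GluA2 sets how much calcium enters. NMDA receptors need the obligatory subunit GluN1 with GluN2 or GluN3 subunits. Those of GluN1 and GluN2 open only when glutamate, a co-agonist and depolarisation coincide. They carry the calcium that starts the long-lasting strengthening of dorsal horn synapses known as central sensitisation. The GluN2 subunits set how long the channel stays open and how strongly magnesium blocks it, and GluN3A lowers its calcium permeability.

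Values are on the log2 scale after RMA normalization by the authors, a procedure that removes background, brings the arrays to a common distribution and condenses the probes of a transcript into 1 value. A difference of 1 on this scale is a 2-fold change, and levels of different genes are not compared because each gene has its own probes. All 10 members had signal well above that of 53 olfactory receptor genes, which the cord is not known to use: the mean of those genes lay between 5.22 and 5.41 on the 8 arrays and the 95th percentile of their levels was 6.94, whereas the dimmest member, Grin2d, averaged 8.78. Dorsal horn identity was measured with 5 of the 6 genes listed as markers of excitatory dorsal horn neurons, whose mean was 9.0 to 9.33 in HDACI and 9.03 to 9.13 in vehicle arrays. Markers of motor neurons, cells of the ventral horn, were also present, with means of 7.64 to 8.54 in HDACI and 8.09 to 9.75 in vehicle arrays.

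None of the 10 subunit genes was called as different between HDACI and vehicle. In limma fitted to all genes, 0 of 10 members passed an adjusted p under 0.05, where 0 of all 14506 genes (0%) passed. At an unadjusted p under 0.01, 0 members passed against 1.46% of all genes (0.607% higher and 0.855% lower with HDACI), and at an unadjusted p under 0.05, 0 members passed against 7.75%. The values of the 2 groups overlapped for all 10 members, while 5.02% of all genes had groups that did not overlap. Differences are given as HDACI minus vehicle throughout. Of the 10 members, 7 lay below 0, as did 57.9% of all genes, and the median difference was -0.02 for the 4 AMPA genes and -0.05 for the 6 NMDA genes, against -0.01 for all genes. The median size of the difference regardless of sign was 0.06 for the members and 0.05 for all genes.

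**Figure D1:**
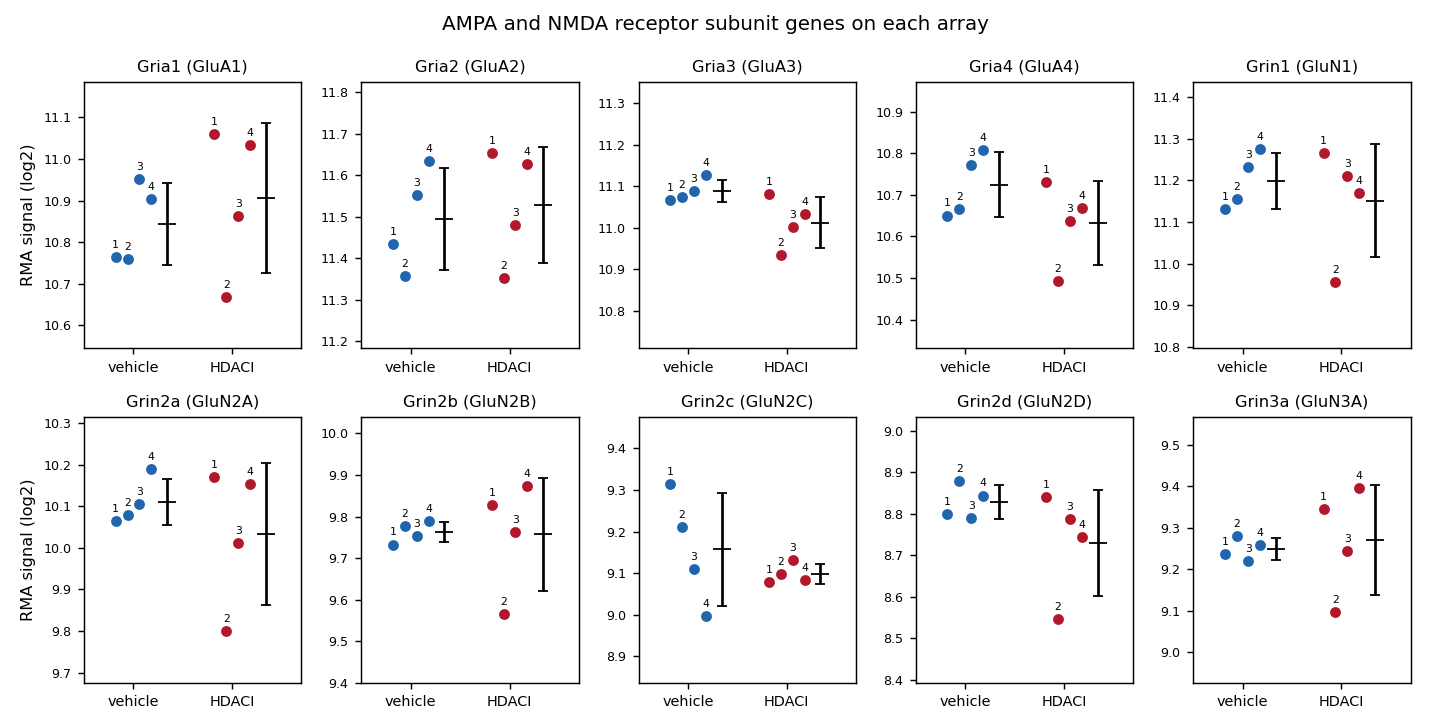
RMA signal on the log2 scale (vertical axis, with its own range in each panel) of the 10 subunit genes on 4 vehicle and 4 HDACI arrays. Each point is 1 array with its replicate number, the bar is the mean with 1 SD, the groups overlap in every panel, and HDACI replicate 2 is the lowest point in 9 panels.

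Gria1, which encodes GluA1, the subunit added to synapses during strengthening, had signals of 11.06, 10.67, 10.86 and 11.03 on HDACI replicates 1 to 4 and of 10.76, 10.76, 10.95 and 10.90 on vehicle replicates 1 to 4. The HDACI arrays held both its highest and its lowest values, so that the vehicle range lay inside the HDACI range. The means were 10.91 ± 0.18 and 10.84 ± 0.10 (SD, n = 4), with a difference of 0.06 (SE 0.09, 95% confidence interval -0.14 to 0.26, adjusted p = 0.903 in limma, unadjusted p = 0.504). Gria2, the gene of GluA2, the calcium-limiting subunit, gave 11.65, 11.35, 11.48 and 11.63 with HDACI and 11.43, 11.36, 11.55 and 11.63 with vehicle, a difference of 0.03 (SE 0.08, interval -0.15 to 0.22, adjusted p = 0.947 in limma). Its order across arrays resembled that of Gria1, and the ranges of the groups nearly coincided.

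Gria3, which encodes GluA3, gave 11.08, 10.93, 11.001 and 11.03 with HDACI and 11.07, 11.07, 11.09 and 11.13 with vehicle. All HDACI arrays but replicate 1 lay below the vehicle range, and the spread within groups was narrow. Gria3 had the smallest p of the 10. Its difference of -0.08 (SE 0.04, interval -0.17 to 0.02) had an unadjusted p of 0.109 and an adjusted p of 0.698 in limma, and an exact permutation test over the 70 assignments of 4 and 4 arrays gave p = 0.0857, where the smallest possible p is 0.0286. Gria4, the gene of GluA4, a subunit with fast kinetics, gave 10.73, 10.49, 10.64 and 10.67 with HDACI and 10.65, 10.67, 10.77 and 10.81 with vehicle. The difference was -0.09 (SE 0.06, interval -0.23 to 0.05, adjusted p = 0.745 in limma), and the upper HDACI values fell within the vehicle range.

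Grin1 encodes GluN1, which every NMDA receptor contains, and its signals were 11.27, 10.96, 11.21 and 11.17 with HDACI and 11.13, 11.15, 11.23 and 11.28 with vehicle. Without HDACI replicate 2 the remaining HDACI arrays lay inside the vehicle range. The means were 11.15 ± 0.14 and 11.20 ± 0.07 (SD, n = 4) and the difference was -0.05 (SE 0.07, interval -0.20 to 0.11, adjusted p = 0.904 in limma). Grin2a, whose product GluN2A gives receptors that close quickly, had signals of 10.17, 9.80, 10.01 and 10.15 with HDACI and 10.07, 10.08, 10.11 and 10.19 with vehicle. The vehicle arrays were tightly grouped and the HDACI arrays spread to both sides of most of them, with a difference of -0.08 (SE 0.08, interval -0.26 to 0.10, adjusted p = 0.857 in limma).

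Grin2b encodes GluN2B, which prolongs the NMDA current and is a target of analgesic antagonists. It gave 9.83, 9.57, 9.76 and 9.87 with HDACI and 9.73, 9.78, 9.75 and 9.79 with vehicle. The means were 9.76 ± 0.14 and 9.76 ± 0.02 (SD, n = 4), the closest of any member, and the difference was -0.005 (SE 0.07, interval -0.15 to 0.14, adjusted p = 0.992 in limma). The HDACI arrays nevertheless lay further apart, with the top and the bottom values both among them. Grin3a, which encodes GluN3A, was laid out in a like way, with 9.35, 9.10, 9.24 and 9.40 with HDACI and 9.24, 9.28, 9.22 and 9.26 with vehicle. Its difference was 0.02 (SE 0.06, interval -0.12 to 0.17, adjusted p = 0.956 in limma).

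Grin2d encodes GluN2D, a subunit that deactivates very slowly, and had the largest difference of the 10 in size. Its signals were 8.84, 8.55, 8.79 and 8.74 with HDACI and 8.80, 8.88, 8.79 and 8.84 with vehicle, a difference of -0.10 (SE 0.06, interval -0.24 to 0.05, unadjusted p = 0.157 and adjusted p = 0.737 in limma). HDACI replicate 2 lay apart below the other 7 arrays. Grin2c, whose product GluN2C confers weak magnesium block, differed from the other members in layout. It gave 9.08, 9.10, 9.13 and 9.08 with HDACI and 9.31, 9.21, 9.11 and 8.997 with vehicle, so that here the vehicle arrays were the spread group and held the highest and the lowest values. Its means were 9.10 ± 0.02 and 9.16 ± 0.14 (SD, n = 4) and its difference was -0.06 (SE 0.06, interval -0.21 to 0.09, adjusted p = 0.863 in limma).

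**Figure D2:**
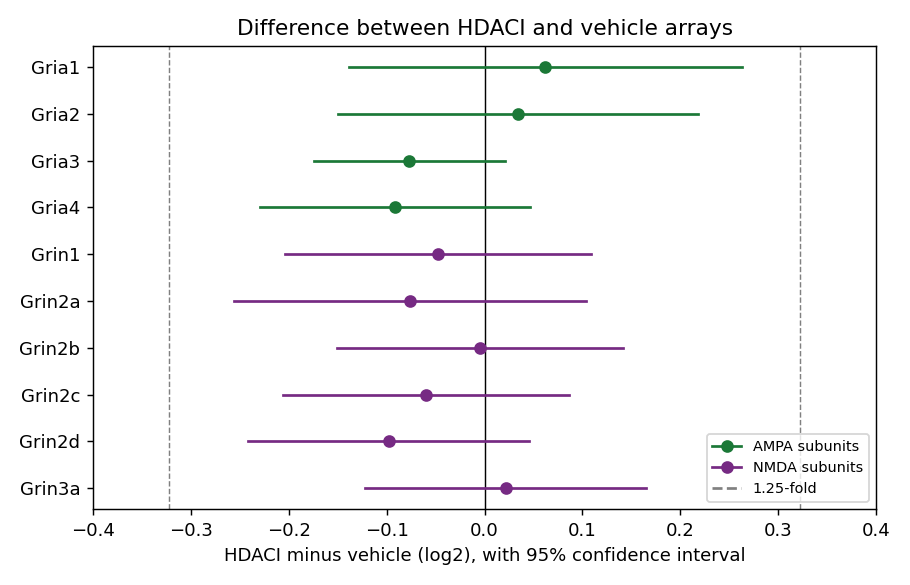
Difference in RMA signal between HDACI and vehicle arrays (log2, horizontal axis) for each subunit gene, with its 95% confidence interval from limma, 4 arrays per group. Dashed lines mark a 1.25-fold change in either direction, and all 10 intervals cross 0 and end inside these lines.

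A lack of a call does not show that a level was the same, and the intervals give the sizes that 4 arrays per group leave possible. All 10 intervals lay inside a 1.25-fold change in either direction, a limit chosen after the intervals were seen, as did those of 88.9% of all genes. As percentages, the lowest bound was that of Grin2a, 16.3% below vehicle, and the highest that of Gria1, 20% above vehicle. RMA signals compress large changes and arrays do not show splice forms, editing, subunit protein or its place in the membrane, so these bounds hold for the probe set signal.

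Receptor make-up was compared through 3 pairs of subunits measured on the same array, as the difference of one gene's log2 signal from another's. Gria1 minus Gria2 was -0.62 ± 0.04 with HDACI and -0.65 ± 0.06 with vehicle (SD, n = 4), which differed by 0.03 (exact permutation p = 0.571). For Grin2a minus Grin2b, whose balance is known to shift as synapses mature, the HDACI arrays gave 0.34, 0.23, 0.25 and 0.28 and the vehicle arrays 0.33, 0.30, 0.35 and 0.40. Most HDACI arrays thus lay below all vehicle arrays, with HDACI replicate 1 as the exception. The difference was -0.07 (SE 0.03, two-sided exact permutation p = 0.0857, 0.257 after adjustment over the 3 pairs). Grin3a minus Grin1 differed by 0.07 (SE 0.06, exact permutation p = 0.257, adjusted p = 0.386). None of the 3 pairs separated the groups.

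A further pattern in these genes lay between arrays. HDACI replicate 2 held the lowest signal of all 8 arrays for 9 of the 10 members, against 19.2% of all genes lowest on that array, and the exception was Grin2c, which was lowest in vehicle replicate 4. The SD was larger in the HDACI group than in the vehicle group for 9 members, again all but Grin2c, against 43.6% of all genes. Neither trait was particular to the subunits. Of the related gene lists described below, the kainate and delta, AMPA auxiliary, scaffold, kinase and RNA editing means were also lowest on HDACI replicate 2. The AMPA auxiliary mean was 10.06 there (10.17 to 10.28 on the others) and the kinase mean 10.94 (11.02 to 11.11). The SD of these list means was also larger with HDACI. The co-agonist and transcription regulator means showed neither trait. Marker levels moved with HDACI replicate 2, and their part in this pattern was not tested. On HDACI replicate 2 the mean of the leptomeningeal fibroblast markers was 10.52 (9.15 to 10.11 on the other 7 arrays), that of the blood markers 9.54 (7.51 to 8.77) and that of the microglia and macrophage markers 10.38 (9.88 to 10.30). The endothelium, oligodendrocyte and oligodendrocyte precursor means were also highest on it. On the same array the markers of excitatory dorsal horn neurons were at 9.0 (9.03 to 9.33 on the others) and those of inhibitory neurons at 10.28 (10.47 to 10.76). Of the dorsal horn markers, Slc17a6, Tac1 and Nmu were lowest on this array, while Lmx1b and Grp were not. The motor neuron markers, at 8.35, lay inside the range of the others (7.64 to 9.75). In bulk tissue, fewer cells of a type and less RNA per cell cannot be told apart.

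**Figure D3:**
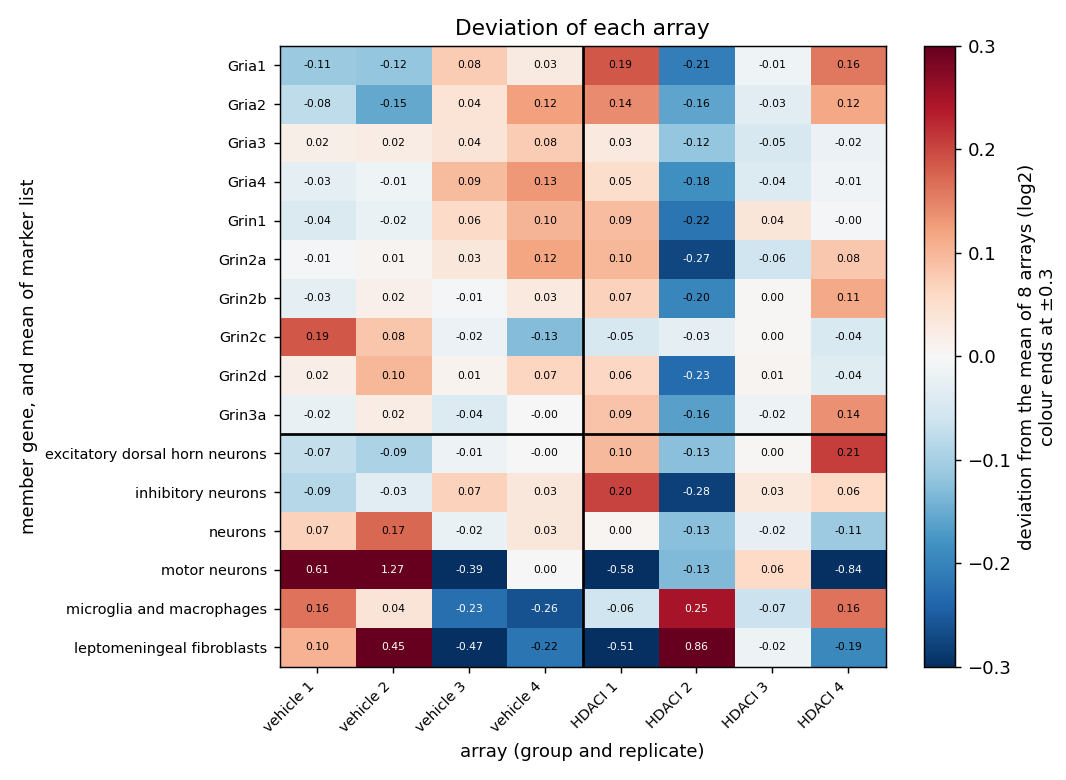
Deviation of each array (columns) from the mean of all 8 arrays, in log2, for the 10 subunit genes and for the means of 6 marker lists (rows). Colour ends at 0.3 in either direction, the printed numbers are the deviations, and the column of HDACI replicate 2 is below 0 for all 10 members and above 0 for the microglia and leptomeningeal fibroblast markers.

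Leaving out HDACI replicate 2 turned the differences of Grin1 to 0.02, of Grin2a to 0.002 and of Grin2b to 0.06, and the median of the AMPA genes to 0.02 and of the NMDA genes to 0.009. Grin2d came to -0.04 and Gria4 to -0.05. Gria1 was then the member with the largest difference, 0.14 (SE 0.07, unadjusted p = 0.0805 in limma). No member was called with or without that array.

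Across all 8 arrays the members other than Grin2c varied together, in part through HDACI replicate 2. All 36 pairs among the other 9 genes had a Pearson correlation above 0, from 0.37 to 0.96 with a median of 0.77, whereas 8 of the 9 pairs with Grin2c lay below 0, from -0.62 to 0.13. Without HDACI replicate 2, a reading added after the data were seen, 8 of these 36 pairs lay below 0 and the median was 0.51, with a range from -0.38 to 0.96. Without the 2 arrays farthest from the median of the first gene of a pair, 7 lay below 0, down to -0.69 for Gria1 with Grin2d and -0.60 for Gria3 with Grin3a. Within the 4 vehicle arrays 8 pairs lay below 0, down to -0.56 for Gria1 with Grin3a, and within the 4 HDACI arrays 0 did. Over all pairs of the 14506 genes the median over 8 arrays was 0.01. Of the 45 member pairs 24 had r over 0.7, against 4.4% of all pairs of genes. Pairs among other neuronal genes were not computed, so this share is not shown to be particular to the subunits. The correlations between members were computed after the values had been seen, and the arrays are shared by all pairs. With exact tests over all 40320 pairings of the arrays, 18 of the 45 pairs had an adjusted p under 0.05 by Pearson's r, and 4 of these by Spearman's rho too.

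The 4 pairs joined subunits within and across the 2 receptors. Gria1 and Gria2 had r = 0.93 and rho = 0.93 (exact p = 0.00213 and 0.00223, adjusted 0.0320 and 0.0251), and r was 0.87 without the 2 arrays farthest from the median of Gria1. Gria3 and Gria4 had r = 0.94 and rho = 0.93 (adjusted exact p = 0.0073 and 0.0251), with r = 0.83 without 2 arrays. Grin2b and Grin3a formed the closest pair, with r = 0.96 and rho = 0.95 (adjusted exact p = 0.0073 and 0.0251), and r = 0.90 without 2 arrays. Gria4 and Grin2a had r = 0.90 and rho = 0.93 (adjusted exact p = 0.0337 and 0.0251). This r came to 0.57 without HDACI replicate 2 and vehicle replicate 4, the 2 arrays farthest from the median of Gria4. Within groups, with those arrays kept, it was 0.97 for HDACI and 0.89 for vehicle.

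**Figure D4:**
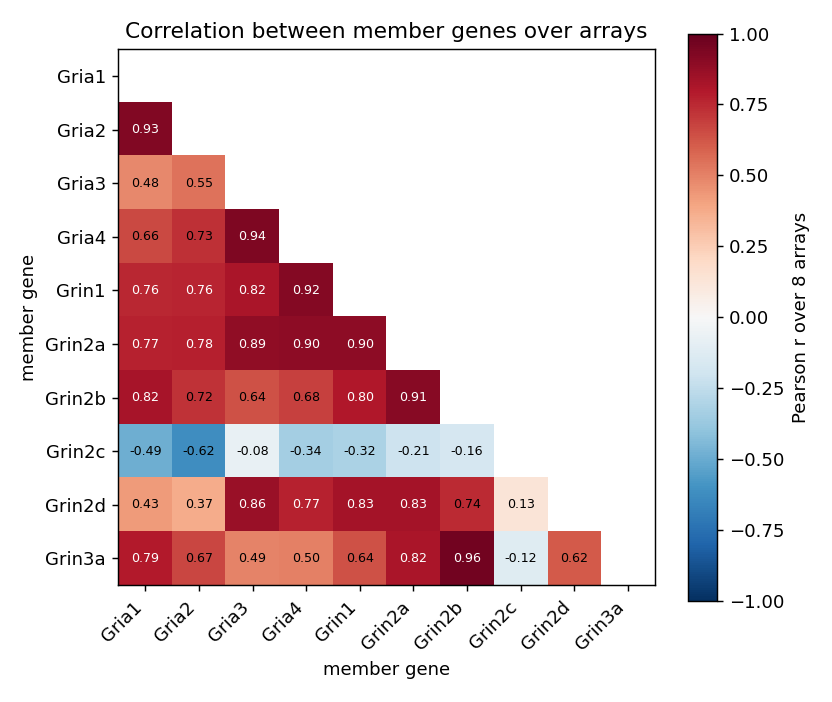
Pearson correlation of each pair of subunit genes over 8 arrays, 4 HDACI and 4 vehicle, with both axes listing the genes and colour giving r from -1 to 1. Over all 8 arrays the cells without Grin2c are above 0, from 0.37 to 0.96 (8 of these 36 pairs lie below 0 without HDACI replicate 2), and the Grin2c cells run from -0.62 to 0.13.

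HDAC inhibitors act on chromatin, so the sequence before the start of the genes was read from a RefSeq table for 5 of the 10 members, Gria4, Grin1, Grin2c, Grin2d and Grin3a. Shown are the 250 bases before the annotated start, in the direction of transcription, of Gria4 and Grin1, which varied together over the arrays (r = 0.92, and 0.68 without HDACI replicate 2 and vehicle replicate 4), and of Grin2c, which varied apart. Capitals mark CG, the dinucleotide at which DNA is methylated. Gria4 lies at chr8:10319882-10320131 on the minus strand, Grin1 at chr3:28528755-28529004 on the minus strand and Grin2c at chr10:101005139-101005388 on the minus strand of the GRCr8 build.
Gria4: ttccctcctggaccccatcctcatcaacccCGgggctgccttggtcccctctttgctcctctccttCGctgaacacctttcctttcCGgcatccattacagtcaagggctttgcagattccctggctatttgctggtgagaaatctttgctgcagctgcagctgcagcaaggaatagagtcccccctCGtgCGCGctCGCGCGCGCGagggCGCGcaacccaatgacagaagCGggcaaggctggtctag
Grin1: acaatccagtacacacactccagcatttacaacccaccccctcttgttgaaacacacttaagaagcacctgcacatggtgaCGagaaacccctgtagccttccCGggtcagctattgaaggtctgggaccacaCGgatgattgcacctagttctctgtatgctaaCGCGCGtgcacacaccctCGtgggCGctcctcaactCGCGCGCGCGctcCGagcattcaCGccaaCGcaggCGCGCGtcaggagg
Grin2c: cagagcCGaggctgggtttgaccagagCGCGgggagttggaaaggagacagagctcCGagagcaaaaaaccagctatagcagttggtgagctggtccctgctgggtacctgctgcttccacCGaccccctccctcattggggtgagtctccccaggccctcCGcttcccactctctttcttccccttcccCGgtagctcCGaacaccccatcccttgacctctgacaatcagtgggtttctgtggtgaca
CG occurred 14 times in the Gria4 sequence and 19 times in that of Grin1, most of them towards the start, and 8 times in that of Grin2c, spread along it. The median over 33469 RefSeq promoters of this length was 5, and the Grin2d and Grin3a sequences held 9 and 16. Grin2d, with a CG count near that of Grin2c, had r = 0.77 with Gria4 and 0.83 with Grin1. These came to 0.08 and 0.06 without HDACI replicate 2 and vehicle replicate 4. A relation of CG count to varying together was not tested. The letters GGGCGG on either strand, the GC box bound by Sp1, were in 0 of the 5 sequences and in 30.5% of all promoters. The letters TGACG on either strand, contained in the element bound by Creb1, occurred at 2 places in the Grin1 sequence, in none of the other 4, and in 18.2% of all promoters. These are descriptions of the letters in these windows only, and methylation and acetylation were not measured on these arrays.

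The relation of the members to neuronal markers was examined over arrays because the neuronal lists did not move alike. The 10 general neuronal markers all had a difference below 0, with a median of -0.14, from -0.26 for Tubb3 to -0.002 for Syt1. Their mean was 11.75 to 11.88 in HDACI and 11.85 to 12.05 in vehicle arrays. Tubb3, Nefm and Nefh, with the largest differences, were highest on vehicle replicates 1 and 2 (Tubb3 at 11.99 and 12.31, against 11.64 and 11.78 on vehicle replicates 3 and 4). The motor neuron mean (9.09 and 9.75) and Calca (10.14 and 10.86) were also highest on those arrays. Calca was listed as a sensory ganglion marker, but the others of that list, Scn10a, Scn11a, Trpv1 and Mrgprd, were not highest there. Scn10a and Scn11a were lowest on vehicle replicate 2 (6.04 and 5.33). The 4 measured motor neuron markers differed by -1.07 for Slc18a3, -0.93 for Prph, -0.75 for Slc5a7 and -0.23 for Isl1, none of them past adjustment. Isl1, with means of 6.81 with HDACI and 7.04 with vehicle, lay near the 95th percentile of the olfactory receptor genes, 6.94. Of the excitatory dorsal horn markers 4 of 5 lay above 0, with a median of 0.13, and of the inhibitory neuron markers 3 of 6, with a median of -0.02. Relations of the 10 members with the general neuronal, motor neuron and excitatory dorsal horn lists made 30 in all, and 0 had an adjusted exact p under 0.05. Those with the motor neuron and dorsal horn lists were not planned.

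By Pearson's r, the 4 highest of these relations were with the markers of excitatory dorsal horn neurons, among them Slc17a6, Tac1 and Grp. For Gria1, r was 0.90 and rho 0.88 over 8 arrays (exact p = 0.0019 and 0.0072, adjusted 0.0565 and 0.109), and r was 0.94 without the 2 arrays farthest from the median of the markers. For Grin3a, r was 0.85 and rho 0.71, and r came to 0.58 without 2 arrays and to -0.48 within the vehicle arrays. For Gria2, r was 0.82 and rho 0.83 (adjusted exact p = 0.0930 and 0.154), with r = 0.86 without 2 arrays. For Grin2b, r was 0.80, which came to 0.75 without 2 arrays and to 0.30 within the vehicle arrays. With the motor neuron markers Gria1 and Gria2 ran the other way, with r = -0.70 and -0.72 (adjusted exact p = 0.216 and 0.200). Over all genes, 2.99% had r over 0.7 with the dorsal horn markers.

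Grin2d was the member closest to the general neuronal markers, with r = 0.78 and the highest rho of the 30 relations, 0.93 (adjusted exact p = 0.137 and 0.0667) and r = 0.73 without 2 arrays. With the neuronal marker mean as a covariate in limma, its difference was 0.02 (SE 0.08) in place of -0.10. That of Grin2c was 0.004 (SE 0.09) in place of -0.06. This alternative was added after the data were seen. The marker mean was itself lower with HDACI (11.81) than with vehicle (11.94), so the fit cannot tell treatment from marker level. Gria3 and Gria4 kept the sign of their differences in that fit and in each of the other 19 alternatives, as did Gria1.

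The genes that serve these receptors were examined in 7 lists, of which 80 of 93 listed genes were measured. None was called after adjustment or at the unadjusted 0.01 level, while 4 (5%) lay under the unadjusted 0.05 level, against 7.75% of all genes. The other ionotropic glutamate receptor genes, for kainate and delta receptors and GluN3B, had 6 of 7 differences above 0 and a median of 0.06. Grik5, Grik3 and Grid1, for the kainate subunits GluK5 and GluK3 and the delta receptor GluD1, had differences of 0.08, 0.07 and 0.07 with adjusted p of 0.727, 0.807 and 0.722 in limma. Grin3b, the gene of GluN3B, a subunit of motor neurons in particular, had signals of 7.40, 7.13, 7.48 and 7.31 with HDACI and 7.46, 7.57, 7.49 and 7.46 with vehicle. These overlapped only through HDACI replicate 3, and the difference was -0.16 (SE 0.07, unadjusted p = 0.0487, adjusted p = 0.640 in limma). It was -0.10 without HDACI replicate 2 (unadjusted p = 0.111 in limma). With the neuronal marker mean, which itself differed between the groups, as a covariate, it was -0.03 (SE 0.09, unadjusted p = 0.754).

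The list of AMPA auxiliary subunits, some of which accompany the channel to the synapse and slow its closing, held the smallest unadjusted p in limma of the 7 lists. Its genes with the smallest p differed in opposite directions. Cacng4, the gene of the transmembrane regulatory protein γ-4, gave 10.07, 10.21, 10.14 and 10.31 with HDACI and 10.05, 9.97, 9.98 and 9.66 with vehicle. The groups did not overlap, the lowest HDACI value being just above the highest vehicle value, with a difference of 0.27 (SE 0.09, interval 0.07 to 0.47, unadjusted p = 0.0129, adjusted p = 0.610 in limma). Cacng2, the gene of stargazin, which anchors AMPA receptors at the synapse, gave 11.02, 10.82, 10.98 and 10.84 with HDACI and 11.03, 11.10, 11.04 and 11.15 with vehicle. Its groups did not overlap either, with HDACI below vehicle, and gave a difference of -0.16 (SE 0.06, interval -0.29 to -0.04, unadjusted p = 0.0164, adjusted p = 0.610 in limma). Of all genes, 5.02% had groups that did not overlap. With the neuronal marker mean as a covariate the Cacng2 difference was -0.07 (SE 0.07, unadjusted p = 0.332 in limma). Cacng4 then had a difference of 0.24 (SE 0.13, unadjusted p = 0.105). The marker mean differed between the groups, so this fit cannot tell treatment from marker level. The median of the 12 measured genes of this list was -0.02, and Neto1 and Cpt1c were at -0.08 and -0.05. Neto1 and Neto2, counted in this list, are auxiliary proteins of kainate rather than AMPA receptors.

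Among 27 scaffold and trafficking genes, which hold receptors in the postsynaptic density, the median was 0.002. Dlgap3, a partner of the scaffold PSD-95, gave 9.21, 9.11, 9.14 and 9.17 with HDACI and 9.11, 9.06, 9.03 and 8.98 with vehicle. The groups did not overlap, as in 5.02% of all genes, the lowest HDACI array being just above the highest vehicle array. The difference was 0.11 (SE 0.04, unadjusted p = 0.0263, adjusted p = 0.627 in limma). Dlgap2, Nptx2 and Homer1 had differences of 0.10, 0.07 and -0.08 with overlapping groups.

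The 15 kinases and phosphatases that act on the subunits had a median of 0.001. Ptpn5, the gene of the phosphatase STEP, which removes GluN2B from the surface, had HDACI values from 10.30 to 10.54 and vehicle values from 10.54 to 10.61. The groups nearly touched, with the highest HDACI value at 10.5366 and the lowest vehicle value at 10.5372. Groups did not overlap for 5.02% of all genes. The difference was -0.11 (SE 0.06, unadjusted p = 0.0878, adjusted p = 0.681 in limma). Prkaca, the catalytic subunit of protein kinase A, was at -0.09, Camk2g at -0.07 and Src at 0.08, all with overlapping groups. Glycine and serine are co-agonists of the NMDA receptor. Of the 9 genes of their supply and removal, 7 lay below 0, with a list median of -0.05. The count mixes supply and removal, Dao and Slc6a9 included, so it gives no direction of co-agonist level. Slc38a2 was at -0.13, Shmt2 at -0.12, Shmt1 at -0.08 and Slc7a10 at -0.07, each with an adjusted p of at least 0.688 in limma. Shmt1, with means of 6.60 with HDACI and 6.68 with vehicle, lay below the 95th percentile of the olfactory receptor genes, 6.94. The list median was -0.09 without HDACI replicate 2, and -0.01 without HDACI replicate 3 or without vehicle replicate 1. It was 0.01 with the neuronal covariate. Slc38a2 was at -0.07 without vehicle replicate 2. The RNA editing enzymes, of which Adarb1 encodes the one that edits the GluA2 transcript, had a difference of -0.05 for Adarb1, -0.03 for Adar and 0.02 for Adarb2. Of 7 measured genes for regulators of subunit transcription, the class I deacetylases Hdac1, Hdac2 and Hdac3, at which the inhibitor is aimed, were at 0.05, -0.06 and -0.05, and Sp1 was at 0.06, with unadjusted p from 0.242 to 0.449.

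**Figure D5:**
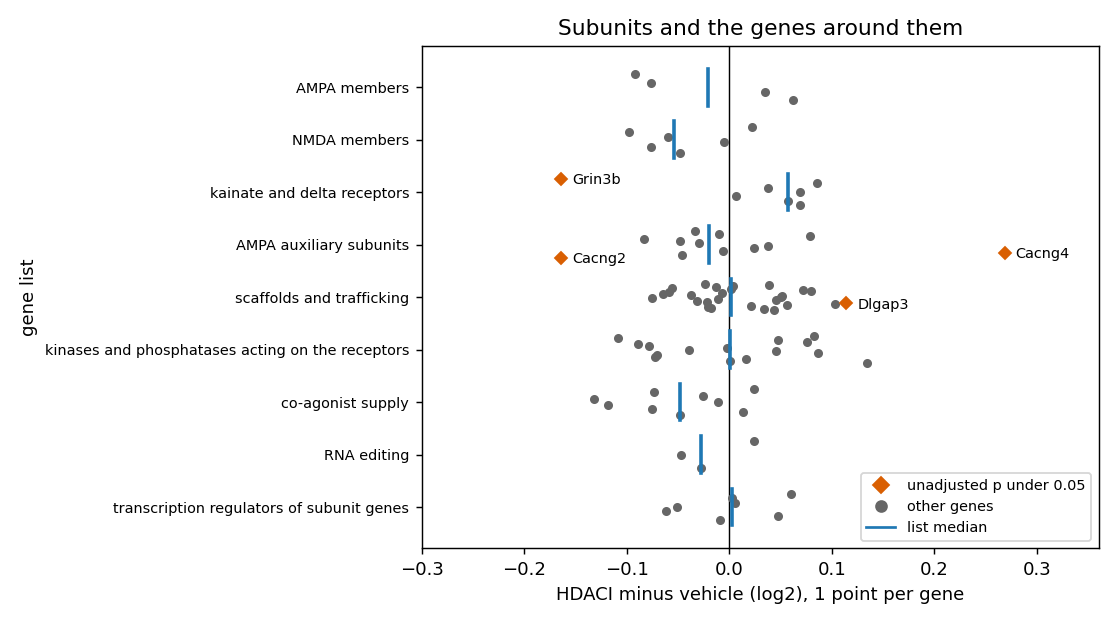
Difference in RMA signal between HDACI and vehicle (log2, horizontal axis) for each measured gene (points) of the AMPA and NMDA members and of 7 lists of genes around them (rows), 4 arrays per group, with blue lines for list medians. The 4 named genes are those with an unadjusted p under 0.05 in limma, none of which passed adjustment, and all list medians lie between -0.05 and 0.06.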

How the data were processed

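RNA of the dorsal ipsilateral cord was measured on 8 arrays, 4 per group, with groups and replicate numbers from the sample titles. The treatment text of the labels names the inhibitor for every array, so the vehicle arrays were known by their titles and source names. The deposited values are log2 signals: the authors processed the scans with oligo, normalized them with RMA and annotated Ensembl v70 through biomaRt, with software versions not given in the sources used here. RMA makes levels relative, so a shift shared by all genes would not be seen.

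Of 29214 probe sets, 15310 carried 1 symbol in the platform annotation, 323 carried several and 13581 were not listed. Symbols were updated by Entrez number, and probe sets of a gene were averaged, which gave 14506 genes. HDACI and vehicle were compared in limma 3.58.1 (lmFit, eBayes; R 4.3.3), without covariates or filter and with Benjamini-Hochberg adjustment over all genes. A gene was called at an adjusted p below 0.05, and separately at an unadjusted p below 0.01, the level used in the study's methods. Exact permutation tests, two-sided, used Python 3.11.15. The code was tested on simulated data of the same size.

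All 10 members were named, and of each list the 4 genes with the smallest p (3 for the list of 3 genes) with any at an unadjusted p under 0.01. Members, lists and marker genes were chosen with earlier results of these data known. Array numbers limit the precision. Scans, other assays and other tissues were not analysed here. Alternatives were other handling of probe sets and symbols, eBayes settings, signal filters, further normalization, array weights, the replicate number as a block and each array left out.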

Additional observations from a re-analysis of the deposited data

How the results depend on the processing

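Each of the 10 members was fitted under 20 alternatives. Of these 200 results, 186 kept direction and call, 14 turned direction and 0 became calls, with differences from -0.14 to 0.14, a smallest unadjusted p of 0.0566 and a smallest adjusted p of 0.484. With the neuronal marker mean as a covariate, added after the data were seen, Gria2 came to -0.010, Grin2b to 0.047, Grin2c to 0.0044, Grin2d to 0.016, Neto1 to 0.031, Slc7a10 to 0.033, Shmt2 to 0.014 and Adarb2 to -0.0016. Further quantile normalization gave Grin2b 0.0079 and array quality weights 0.034. When single arrays were left out, the differences ran from -0.011 (without vehicle replicate 2) to 0.093 (without HDACI replicate 2) for Gria2, and from -0.086 (without HDACI replicate 1) to 0.017 (without HDACI replicate 2) for Grin1. They ran from -0.12 to 0.0017 for Grin2a between the same arrays. Between leaving out HDACI replicate 4 and HDACI replicate 2 they ran from -0.044 to 0.059 for Grin2b, from -0.020 to 0.080 for Grin3a and from -0.019 to 0.063 for Adarb2. For Sp1 they ran from -0.0071 without vehicle replicate 4 to 0.100 without vehicle replicate 2. The cause of these turns was not tested.

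The co-agonist list was the only 1 of the 7 whose median moved by more than its spread between replicates, under 5 of 20 alternatives: -0.084 with array quality weights, 0.0097 with the neuronal covariate, -0.085 without HDACI replicate 2, -0.014 without HDACI replicate 3 and -0.011 without vehicle replicate 1, in place of -0.048. Genes of the 7 lists at an unadjusted p under 0.01 numbered 2 with trend and robust settings (Cacng2 and Cacng4), 1 with further quantile normalization and 1 with arrays centred on their medians (Cacng4 in both), in place of 0. They numbered 0 to 1 when single arrays were left out (Cacng2 without HDACI replicate 1, Cacng4 without vehicle replicate 1). Without the 2 arrays farthest from the median of the markers, r turned to -0.10 for Grin2a, -0.73 for Grin2b and -0.64 for Grin3a with neuronal markers, to -0.065 for Gria3 and -0.0059 for Grin2d with motor neuron markers, and to -0.12 for Grin2d with dorsal horn markers. Arrays of the same replicate number had deviations correlated at -0.27, 0.36, 0.04 and 0.06, so the numbers were not taken as pairs. With the replicate number as a block, 0 members were called, and 187 genes in all had an unadjusted p under 0.01, against 212 without it.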
